A study of Homo sapiens with 16 samples.

Results

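KIT, the receptor tyrosine kinase for stem cell factor, and KITLG, the gene of that ligand, were followed across all 16 libraries of an RNA-seq experiment in human thyroid tumor cells. They are 2 of the 60715 genes in the table of normalized counts and were taken by gene symbol (KIT, ENSG00000157404.16; KITLG, ENSG00000049130.16). KIT was chosen by its own level, for the fall in CAL62 cells with 10 µM DEL-22379, and KITLG was taken as its ligand. Every KIT difference that includes CAL62 cells with DMSO or 10 µM DEL-22379 is therefore given as a description with no test. The same holds for KITLG in the contrast of 10 µM DEL-22379 with DMSO in CAL62 cells. The tests that remain use a spread estimated from all 16 libraries, these groups included, so they are not wholly free of the choice. CAL62 (RAS-mutant) and 8505c (BRAF-mutant) are lines of anaplastic thyroid carcinoma, 1 line for each genotype, so that line and genotype cannot be told apart. All cells grew for 24 h with 10% FBS, with either U0126, which blocks the ERK kinase MEK, or DEL-22379, a compound described as an inhibitor of ERK dimer formation, or DMSO as vehicle. There were 8 groups of 2 biological replicates each: CAL62 with 10 µM U0126, with DMSO, with 1 µM DEL-22379 and with 10 µM DEL-22379, and 8505c with the same 4 treatments. The sample labels give these doses in mM, and the µM of the study's methods are used here.

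Binding of stem cell factor pairs up KIT receptors, which then phosphorylate each other and signal through RAS and ERK, PI3 kinase, SRC family kinases and STAT proteins. The ligand is made in a membrane-bound form that proteases can cut free. The pair is best known for the survival of mast cells, melanocytes, blood progenitors, germ cells and interstitial cells of Cajal. Normal thyroid follicular cells are known to express KIT, which is commonly reduced in thyroid carcinoma.

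On GRCh38, KIT lies at chr4:54657918-54740715 on the plus strand and KITLG at chr12:88492793-88580851 on the minus strand (GENCODE 29, which holds both gene IDs in an earlier version than the table). The 250 bases before each RefSeq start (GRCh38.p14) are shown because the levels of both genes differed between the lines. They cover chr4:54657707-54657956 for KIT and chr12:88580472-88580721, read on the minus strand, for KITLG. Capitals mark every match to 7 motifs searched on both strands.
KIT: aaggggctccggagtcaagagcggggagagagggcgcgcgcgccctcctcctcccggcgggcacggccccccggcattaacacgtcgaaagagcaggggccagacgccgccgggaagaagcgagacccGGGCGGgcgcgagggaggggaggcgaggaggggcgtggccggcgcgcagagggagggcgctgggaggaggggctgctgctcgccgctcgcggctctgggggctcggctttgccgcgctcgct
KITLG: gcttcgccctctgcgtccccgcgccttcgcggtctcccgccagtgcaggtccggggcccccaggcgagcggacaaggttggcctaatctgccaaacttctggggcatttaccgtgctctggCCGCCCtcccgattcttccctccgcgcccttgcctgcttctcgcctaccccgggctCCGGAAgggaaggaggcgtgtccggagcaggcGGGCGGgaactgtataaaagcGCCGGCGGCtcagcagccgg
The KIT window held 1 match, a GC box (GGGCGG), which 42.6% of the 35116 RefSeq windows of this length held. The KITLG window held 2 GC boxes (1 on each strand), 1 ETS core (CCGGAA, in 14.5% of all windows) and 1 AP-2 motif (GCCNNNGGC, in 19.8%), none overlapping another. Neither window held AP-1 (TGANTCA, 6.6%), the cyclic AMP element (TGACGTCA, 1.6%), the E-box (CACGTG, 6.3%) or the motif of GATA factors (AGATAA, 9.2%). GC content was 76.4% for KIT and 69.2% for KITLG, against a median of 58% over all windows. GENCODE 29 sets the start of KIT 39 bases earlier and that of KITLG 380 bases earlier, so that the KITLG window lies inside the GENCODE gene. These matches describe letters only and were not tested as binding sites.

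Totals per library were 31260649 to 36449368 normalized counts, from 25683055 to 43855892 reads, so that 1 read was worth 0.78 to 1.34 normalized counts. The thyroid identity of the lines was checked with 8 markers. CAL62 cells had PAX8 at 7285 to 12449 normalized counts, with NKX2-1 at 0 to 1.11, while 8505c cells had NKX2-1 at 3765 to 6234 and PAX8 at 47.2 to 129. TSHR and DIO1, defining markers of differentiated thyroid, were at 0 in all 16 libraries. TG and SLC5A5 reached at most 88.8 and 87.7, both in CAL62 cells with 10 µM DEL-22379, replicate 2. FOXE1 reached at most 55.7, in CAL62 cells with 1 µM DEL-22379, replicate 2. Of cells known to depend on KIT, the defining mast cell gene FCER1A and the melanocyte genes TYR and MLANA were at 0 in every library. Summed mast cell markers reached 11.4 in CAL62 cells and 41.1 in 8505c cells. Single markers of KIT-dependent cells were above 50 in these libraries, namely TYRP1 (259 to 518) and CD33 (937 to 1184) in 8505c cells, ETV1 in both lines, and ANO1, PMEL and SPI1 in CAL62 cells. RNA of a whole culture was measured, so fewer expressing cells and less RNA per cell cannot be told apart.

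In CAL62 cells KIT was close to undetected with 10 µM DEL-22379 and was present with each of the other treatments. Along the doses it measured 244 and 934 normalized counts with DMSO, 316 and 1319 with 1 µM DEL-22379, and 7.66 and 3.1 with 10 µM DEL-22379 (replicates 1 and 2). The libraries with 10 µM held 6 and 3 KIT reads, with exact Poisson 95% intervals of 2.81 to 16.7 and 0.639 to 9.06 normalized counts, which cover counting error only. Both lay below every other CAL62 library and below every 8505c library. Relative to DMSO, the difference in log2(normalized counts + 1) was -6.33 with 10 µM and 0.43 with 1 µM, and the added 1 makes such a difference smaller for values this low. Without any single library the 10 µM difference ran from -7.29 to -5.36. With U0126 KIT measured 297 and 383 normalized counts, against 244 and 934 with DMSO, and these groups overlapped. The 2 CAL62 replicates differed widely, 3.84-fold with DMSO and 4.18-fold with 1 µM DEL-22379, replicate 2 being the higher in both. Within a replicate number, the ratio of 1 µM to DMSO was 1.3 and 1.41, the ratio of 10 µM to DMSO was 0.0354 and 0.00438, and the ratio of U0126 to DMSO was 1.22 and 0.411. The 10 µM value was thus low in both replicates, while the U0126 value lay above DMSO in replicate 1 and below it in replicate 2. The paper reports that the higher dose of DEL-22379, after the same exposure time, lowered viability in RAS-mutant lines only, CAL62 among them. The part of this loss of viability in the KIT value was not tested.

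KIT in CAL62 cells was also compared between U0126 and 1 µM DEL-22379. The difference leaves out both groups of the choosing contrast, while the shared spread takes them in. KIT averaged 340.2 ± 60.9 normalized counts with U0126 and 817 ± 709 with 1 µM DEL-22379 (SD, n = 2 each). The log2 difference of -0.93 (95% interval -2.44 to 0.58, limma, adjusted p = 0.348) did not pass, where 29.9% of the 19127 genes tested passed in either direction. Leaving out 1 library moved the difference between -1.96 and 0.1, the sign turning without the 1 µM replicate 2.

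**Figure D1:**
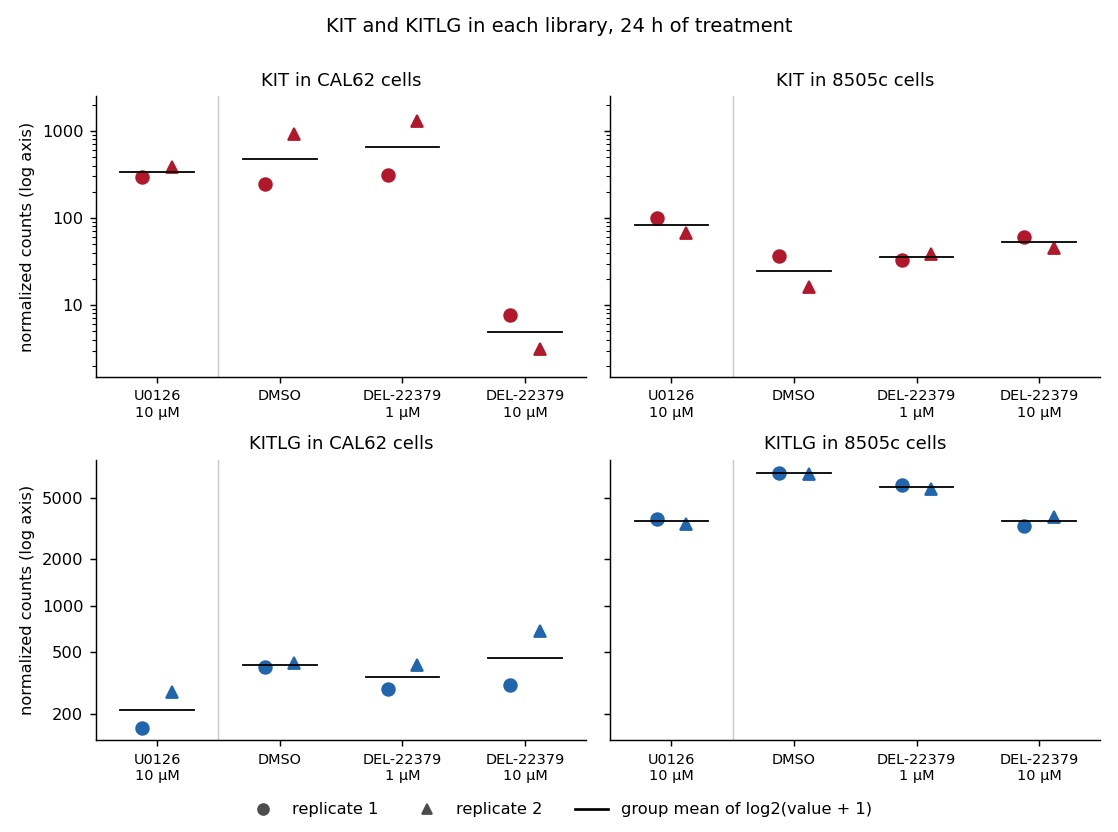
KIT (upper panels) and KITLG (lower panels) in normalized counts on log axes, CAL62 cells left and 8505c cells right, with 1 point for each replicate and a line at the mean of log2(value + 1). KIT in CAL62 cells with 10 µM DEL-22379 lay at 7.66 and 3.1, under every other value of the 16, and KITLG of 8505c cells lay at 3385 to 3628 with U0126 and at 3304 to 3778 with 10 µM DEL-22379, against 7168 to 7243 with DMSO.

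In 8505c cells KIT was low throughout, and no treatment changed it past the threshold. Along the doses it measured 36.5 and 16.2 normalized counts with DMSO, 33.2 and 38.5 with 1 µM DEL-22379 and 61.1 and 45.5 with 10 µM DEL-22379. With U0126 it measured 99.8 and 67.7, against 36.5 and 16.2 with DMSO. All libraries with 10 µM DEL-22379 or U0126 lay above both DMSO libraries. The log2 differences from DMSO were 0.53 with 1 µM (adjusted p = 1), 1.08 with 10 µM (95% interval -0.43 to 2.59, adjusted p = 0.324) and 1.71 with U0126 (0.2 to 3.22, adjusted p = 0.13), by limma with Benjamini-Hochberg adjustment. At 1 µM, 0.00523% of genes rose and 0.0105% fell. The standard error of 0.7 was shared by all groups and took in the wide CAL62 replicates, and with only the compared groups in the fit the U0126 difference passed (adjusted p = 0.0424).

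CAL62 was the line with more KIT in the 3 conditions other than 10 µM DEL-22379. With U0126 the lines measured 297 and 383 normalized counts in CAL62 cells, against 99.8 and 67.7 in 8505c cells, a log2 difference of 2.02 (SE 0.7, adjusted p = 0.0245, 57.7% of genes called in either direction). With 1 µM DEL-22379 they measured 316 and 1319 in CAL62 cells, against 33.2 and 38.5 in 8505c cells, a log2 difference of 4.14 (SE 0.7, adjusted p = 2.8e-04, 52.4% called). With DMSO the values were 244 and 934 in CAL62 cells, against 36.5 and 16.2 in 8505c cells, a log2 difference of 4.24 given as a description. A gene chosen for a steep fall in CAL62 cells has to be expressed there, so the choice itself favoured a higher CAL62 level. The lines did not overlap in any of these conditions, and the difference held under 1 µM without any single library. Under U0126 it missed the threshold without CAL62 U0126 replicate 1 (2.21, adjusted p = 0.059), without CAL62 U0126 replicate 2 (1.84, adjusted p = 0.108) and without 8505c U0126 replicate 2 (1.75, adjusted p = 0.125). In order of the group means, KIT ran from 8505c with DMSO (26.3) over 1 µM (35.8), 10 µM (53.3) and U0126 (83.7) to CAL62 with U0126 (340.2), DMSO (589) and 1 µM (817). CAL62 with 10 µM (5.38) lay under all of these. Along this order the ranges of neighbouring groups overlapped between 8505c with DMSO and with 1 µM, and among the 3 higher CAL62 groups.

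In 8505c cells KITLG fell with both inhibitors at 10 µM. Along the doses it measured 7243 and 7168 normalized counts with DMSO, 6011 and 5719.6 with 1 µM DEL-22379 and 3304 and 3778 with 10 µM DEL-22379. With U0126 it measured 3628 and 3385, against 7243 and 7168 with DMSO. The groups with 10 µM DEL-22379 and U0126 overlapped each other, and both lay below the 1 µM and DMSO groups, which did not overlap. The log2 difference from DMSO was -1.03 with 10 µM DEL-22379 (SE 0.31, adjusted p = 0.0477, where 6.57% of genes fell and 7.07% rose). With U0126 it was -1.04 (SE 0.31, adjusted p = 0.0474, where 5.87% fell and 6.8% rose), and with 1 µM it was -0.3 (95% interval -0.98 to 0.38, adjusted p = 1). Both calls lay next to the threshold. They were lost without any 1 of the 8 libraries of 8505c or either CAL62 DMSO library, with differences of -1.12 to -0.93 (adjusted p up to 0.244) for 10 µM and -1.09 to -0.99 (up to 0.208) for U0126, and held with the replicate number as a block (adjusted p = 0.00269 and 0.00244).

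In CAL62 cells KITLG fell with U0126 as well. It measured 162 and 277 normalized counts with U0126, against 399 and 427 with DMSO, and the groups did not overlap. The log2 difference was -0.96 (SE 0.31, adjusted p = 0.0366, where 15.1% of genes fell and 14.1% rose). This call was lost without CAL62 U0126 replicate 1 (-0.57, adjusted p = 0.276), without either CAL62 DMSO library (-1.01 and -0.91) and without any 1 of the 8505c libraries with DMSO, 1 µM or U0126 (-0.96, adjusted p from 0.0504), and held with the replicate number as a block (adjusted p = 0.00187). With 1 µM DEL-22379 KITLG measured 289 and 414, which reached into the DMSO range, and the log2 difference of -0.25 (95% interval -0.93 to 0.43, adjusted p = 1) did not pass. In this comparison limma called 0 of 19127 genes (0% up, 0% down), with 336 at an unadjusted p under 0.05, edgeR called 0 and DESeq2 called 2. With 10 µM DEL-22379 KITLG measured 306 and 687, against 399 and 427 with DMSO, so that replicate 1 lay below and replicate 2 above both DMSO values (log2 difference 0.15, described only). KITLG thus stayed detectable in the CAL62 libraries where KIT was at 7.66 and 3.1.

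U0126 and 1 µM DEL-22379 were compared for KITLG in CAL62 cells too. The values were 162 and 277 normalized counts with U0126, against 289 and 414 with 1 µM DEL-22379. The log2 difference of -0.7 (95% interval -1.39 to -0.02) had an adjusted p of 0.111 in limma. With the replicate number as a block the adjusted p in limma was 0.0107, and this was the only 1 of 10 other settings that passed. Over these settings of limma, edgeR and DESeq2 the adjusted p reached 0.224. Leaving out 1 library moved the difference between -1.09 and -0.32.

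The response of KITLG to U0126 was also set between the lines. CAL62 minus 8505c gave a difference in log2 response of 0.08 (95% interval -0.88 to 1.04, adjusted p = 0.948), where 5.69% of genes differed. For 1 µM DEL-22379 the difference was 0.04 (-0.92 to 1.01, adjusted p = 1). In the 1 µM test limma called 0 genes (0%), with 436 at an unadjusted p under 0.05, edgeR called 0 and DESeq2 called 3. The intervals are wide, so responses that differ by up to about 1 on the log2 scale were not detectable here.

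KITLG was higher in 8505c cells under every treatment, the reverse of KIT outside 10 µM DEL-22379. With DMSO it measured 399 and 427 normalized counts in CAL62 cells, against 7243 and 7168 in 8505c cells, a log2 difference of -4.12 (SE 0.31, adjusted p = 2.8e-07, 53% of genes called in either direction). The difference was -4.08 with 1 µM DEL-22379 (adjusted p = 3.2e-07) and -4.04 with U0126 (adjusted p = 3.1e-07). It was past the threshold in every alternative fit and without any single library, from -4.43 to -3.66. The highest CAL62 value (687, with 10 µM) lay below the lowest 8505c value (3304, with 10 µM). In order of the group means, KITLG ran in CAL62 cells from U0126 (219.5) over 1 µM (352) and DMSO (413) to 10 µM (497), with overlap between each pair of neighbours except U0126 and 1 µM. In 8505c cells it ran from U0126 (3506) and 10 µM (3541), which overlapped, to 1 µM (5865) and DMSO (7205), which did not.

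**Figure D2:**
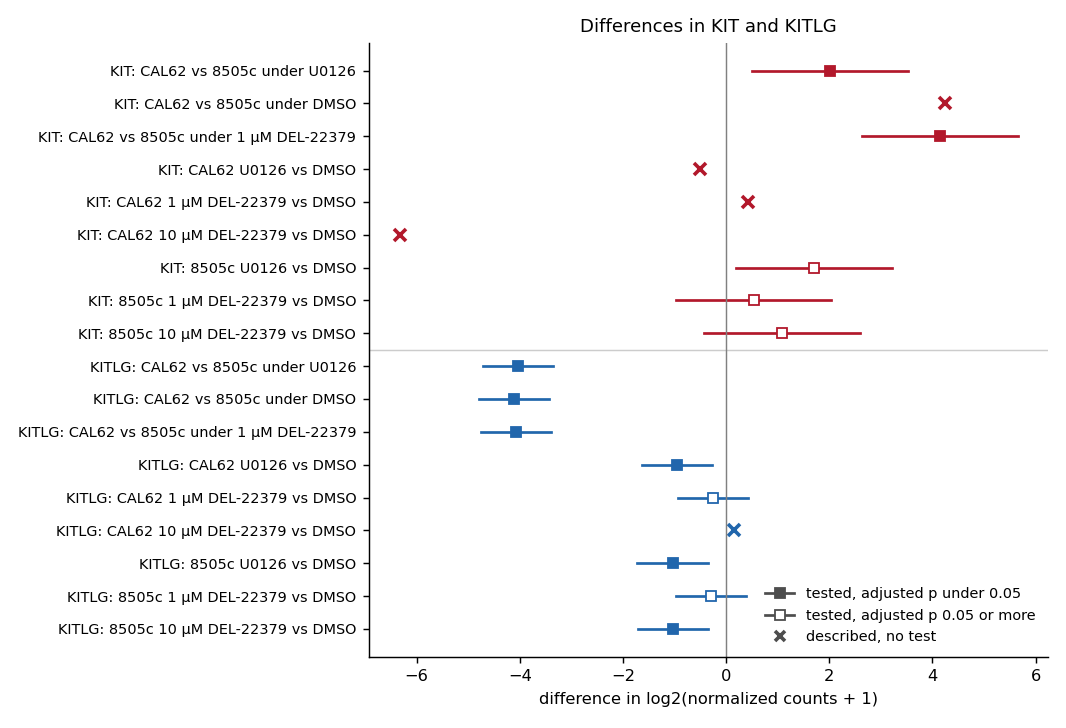
Differences in log2(normalized counts + 1) for KIT (upper rows) and KITLG (lower rows), with 95% intervals from limma where a test was made, filled squares at adjusted p under 0.05, and crosses for values described without a test. KIT differences between the lines lay at 2.02 to 4.24 and KITLG differences at -4.12 to -4.04, and the KIT value of CAL62 cells with 10 µM DEL-22379 lay at -6.33.

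Receptor and ligand were set against each other within each line. Across the 8 libraries of 8505c cells, where the libraries with U0126 or 10 µM DEL-22379 held more KIT and less KITLG than those with DMSO, Pearson's r of their log2 values was -0.83 (Spearman's rho -0.83). Across the 8 libraries of CAL62 cells it was -0.34 (rho -0.07). These points are 4 treatments in 2 replicates and share their groups, so that the values describe the libraries only.

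**Figure D3:**
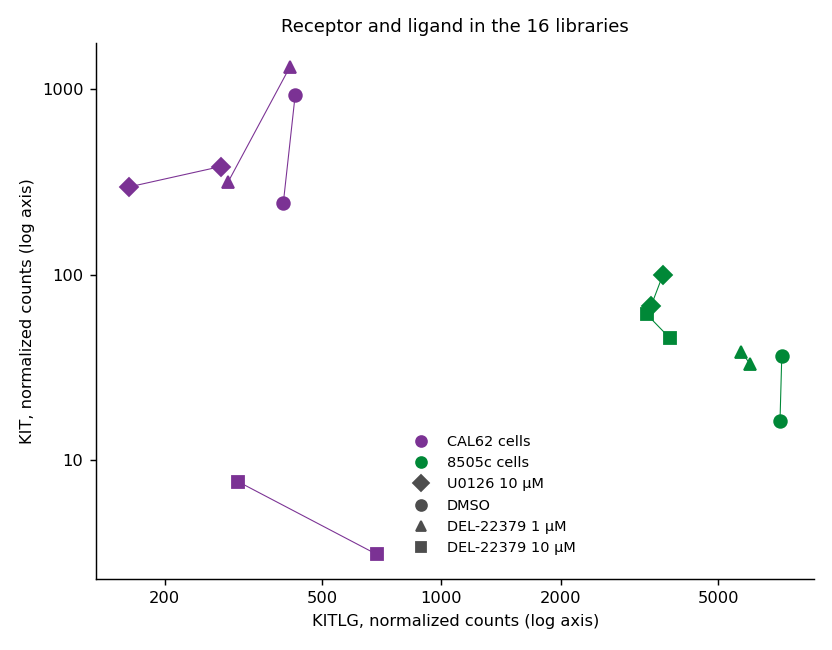
KIT against KITLG in normalized counts on log axes, with 1 point for each of the 16 libraries and a line joining the replicates of a group. CAL62 libraries lay at KITLG of 162 to 687 and 8505c libraries at 3304 to 7243, and KIT spanned 3.1 to 1319 in CAL62 cells and 16.2 to 99.8 in 8505c cells.

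Transcripts that act around the receptor were read next, from lists chosen with earlier results of these data known. Of 27 tested genes that relay the KIT signal, U0126 raised 10 and lowered 0 in CAL62 cells, and it raised 4 and lowered 3 in 8505c cells. In 8505c cells 10 µM DEL-22379 raised 1 and lowered 3. Over all genes U0126 raised 14.1% and lowered 15.1% in CAL62 cells and raised 6.8% and lowered 5.87% in 8505c cells, and 10 µM DEL-22379 raised 7.07% and lowered 6.57% in 8505c cells. SOS2, an exchange factor that loads RAS, measured 1137 and 1275 normalized counts with U0126 in CAL62 cells, against 559 and 679 with DMSO (log2 difference 0.97, adjusted p = 5.8e-04). PIK3CD, a catalytic PI3 kinase subunit, measured 430.3 and 465 with U0126, against 99.0 and 207 with DMSO (1.64, adjusted p = 0.00278). Both rose in CAL62 cells, where KIT itself overlapped between U0126 and DMSO. With 10 µM DEL-22379 in 8505c cells the kinase SRC rose (0.61, adjusted p = 0.00486) and the PI3 kinase subunit PIK3CB fell (-0.5, adjusted p = 0.00695). The list median was 0.2 in CAL62 cells and 0.03 in 8505c cells with U0126, against 0.05 and 0.02 over all genes. These counts depended on single libraries: the 10 calls in CAL62 cells became 2 without DMSO replicate 1, 4 without U0126 replicate 1 and 3 without U0126 replicate 2, and 0 with only the compared groups in the fit. The 7 calls with U0126 in 8505c cells became 2 without either DMSO library or U0126 replicate 1 and 0 without U0126 replicate 2, and the 4 with 10 µM became 2 without DMSO replicate 1 and 0 without 10 µM replicate 1.

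Attenuators of KIT signaling moved in both directions. Of 12 tested, U0126 raised 2 and lowered 3 in CAL62 cells and raised 3 and lowered 4 in 8505c cells, and 10 µM DEL-22379 raised 0 and lowered 3 in 8505c cells. The shares of all genes were 14.1% up and 15.1% down, 6.8% up and 5.87% down, and 7.07% up and 6.57% down in these comparisons, so that the CAL62 counts lay near the background. CBLB, a ubiquitin ligase of the CBL family that marks active receptor kinases for degradation, measured 4081 and 4892 normalized counts with U0126 in CAL62 cells, against 296 and 513 with DMSO (log2 difference 3.52, SE 0.25, adjusted p = 2.6e-06). In 8505c cells CBLB rose by 0.93 (adjusted p = 0.0298). SH2B3, an adaptor that dampens KIT signaling in blood cells, measured 506 and 625 with U0126 in CAL62 cells, against 1949.9 and 2025 with DMSO. It fell by 1.82 there, and in 8505c cells it fell by 1.34 under U0126 and by 1.25 under 10 µM DEL-22379 (adjusted p = 2.0e-06, 5.4e-05 and 1.8e-04). SPRED1 and SPRED2, which restrain the step from RAS to RAF, fell with U0126 in 8505c cells by 1.61 and 1.94, and in CAL62 cells by 0.57 and 0.55. With U0126 the calls in 8505c cells dropped from 7 to 4 without DMSO replicate 1 or either U0126 library, and in CAL62 cells from 5 to 3 without DMSO replicate 1 or U0126 replicate 2 and to 2 with only the compared groups in the fit. With 10 µM in 8505c cells the 3 calls became 9 with the replicate block, and without single libraries the count moved in both directions.

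Of the 6 tested genes for proteases that cut the receptor or the ligand, and for their regulators, limma called 0 under U0126 in CAL62 cells, 0 under U0126 in 8505c cells and 0 under 10 µM DEL-22379 in 8505c cells. At an unadjusted p under 0.05 in limma there were 2, 2 and 2, beside 7731, 5282 and 5716 of all 19127 genes. In edgeR 0, 1 and 0 were called and in DESeq2 1, 2 and 0. At the adjusted threshold 14.1% of all genes rose and 15.1% fell, 6.8% rose and 5.87% fell, and 7.07% rose and 6.57% fell. Beside these shares 0 of 6 is no result about these genes, and neither is 2 of 6 beside the unadjusted counts. ADAM17, a protease known to shed KIT from mast cells, measured 4824 and 4146 normalized counts with U0126 in CAL62 cells, against 3334 and 3622 with DMSO. With the replicate block 2, 1 and 1 of the 6 were called.

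The contrast that chose KIT is given here for the same lists as a description. With 10 µM DEL-22379 in CAL62 cells 17.1% of all genes rose and 16.8% fell. Of the relay genes 12 rose and 1 fell, of the attenuators 4 rose and 2 fell, of the shedding genes 2 rose and 1 fell, of the regulators 4 rose and 1 fell, and of the ERK output genes 8 rose and 0 fell. SH2B3 was among those that rose, at 6016 and 6424 normalized counts with 10 µM, against 1949.9 and 2025 with DMSO. Of the 6 thyroid markers tested 3 rose and 0 fell, with PAX8 at 11419 and 12449 with 10 µM, against 7445 and 10716 with DMSO, and of the 7 fibroblast markers 0 rose and 2 fell. Of the 5 epithelial markers tested 0 rose and 2 fell, with KRT7, a keratin, at 2632 and 5222 with 10 µM, against 13921 and 45704 with DMSO, and KRT8 at 8974 and 12369, against 18445 and 20538. The part of these markers in the KIT value was not tested.

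Among 15 tested regulators of KIT or KITLG, U0126 raised 5 and lowered 3 in CAL62 cells, where 14.1% of all genes rose and 15.1% fell, so that the share lowered lay near the background. ETV1, an ETS factor that works with KIT in interstitial cells of Cajal, measured 41.7 and 28.6 normalized counts with U0126 in CAL62 cells, against 519 and 467 with DMSO (log2 difference -3.8, adjusted p = 8.3e-06). In 8505c cells ETV1 fell by 2.53 with U0126 (adjusted p = 4.9e-04), where 5.87% of all genes fell, and it was the 1 regulator called there. With 10 µM DEL-22379, where KIT was close to undetected, ETV1 measured 461 and 322 in CAL62 cells. The part of ETV1 in the KIT value was not tested. MYB, a blood progenitor factor, fell with U0126 in CAL62 cells (-2.98, adjusted p = 2.3e-04), while HIF1A, the oxygen-regulated factor, and LDB1, a partner of GATA and TAL factors, rose (0.76 and 1.13, adjusted p = 4.0e-04 and 4.4e-04). The 8 calls became 4 without CAL62 DMSO replicate 1, 5 without CAL62 U0126 replicate 2 and 2 with only the compared groups in the fit. In 8505c cells with 10 µM 2 fell, where 6.57% of all genes fell, and this count became 0 without DMSO replicate 1 or 10 µM replicate 1, and 1 without any other 8505c library. The 1 call with U0126 in 8505c cells became 2 without either CAL62 library with DMSO or with 1 µM, 4 with the replicate block, 6 with only the compared groups in the fit and 2 in DESeq2.

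One regulator is the host RNA of miR-221 and miR-222 (MIR222HG, chrX:45745211-45770274), which are known to repress KIT. Their mature forms (RefSeq, GRCh38.p14, chrX:45746180-45746202 and chrX:45747036-45747056, minus strand) are shown with the shared seed, bases 2 to 8, in capitals, followed by the matches to that seed in the 3′ UTR of the longest KIT transcript (ENST00000288135.5, 2158 bases), at bases 1030 and 1959 of the UTR.
hsa-miR-221-3p: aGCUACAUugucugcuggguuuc
hsa-miR-222-3p: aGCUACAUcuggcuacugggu
KIT match at 1030: gtttggattcttATGTAGCaggaaataaag
KIT match at 1959: gtaaatattgaaATGTAGCaataatgtctt
KITLG held no such match in 4426 bases, and 8% of 19113 genes held at least 1. The host RNA measured 544 and 281 normalized counts with U0126 in CAL62 cells, against 1169.7 and 769.9 with DMSO (log2 difference -1.28, SE 0.44, adjusted p = 0.045). In 8505c cells it measured 303 and 175 with 10 µM DEL-22379, against 672 and 589 with DMSO (-1.44, SE 0.44, adjusted p = 0.047). With U0126 in 8505c cells it measured 342 and 269.9, and the difference did not pass (-1.05, adjusted p = 0.141). The calls with U0126 in CAL62 cells and with 10 µM in 8505c cells lay next to the threshold. The 8505c call was lost with libraries scaled to equal totals, and the gene was named after its values were seen. In CAL62 cells with 10 µM it measured 758 and 308, both below the DMSO values, where KIT was at 7.66 and 3.1. The mature miRNAs were not measured in these mRNA libraries.

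The other class III receptors, the family of KIT, were mostly low. Of 11 listed receptors and ligands 7 were tested, and U0126 raised 2 in CAL62 cells and 1 in 8505c cells, where 14.1% and 6.8% of all genes rose. With so few genes these counts lie near the background. PDGFRB measured 56.9 and 77.2 normalized counts with U0126 in 8505c cells, against 7.98 and 2.16 with DMSO (log2 difference 3.66, SE 0.83, adjusted p = 0.0129), a call that was lost without either U0126 library or DMSO replicate 2. The ligands PDGFB and PDGFD rose with U0126 in CAL62 cells (1.58 and 1.23, adjusted p = 0.00636 and 0.00786), and neither passed without CAL62 DMSO replicate 1 or U0126 replicate 1. With only the compared groups in the fit 0 of the list passed in CAL62 cells. PDGFD measured 15.3 and 12.4 with 10 µM DEL-22379 in CAL62 cells, against 178 and 224 with DMSO. PDGFRA reached at most 11.8 and FLT3 at most 10.3 in any library. PDGFRB is also a fibroblast marker, and of the 7 fibroblast markers 4 rose with U0126 in each line (14.1% of all genes in CAL62 cells and 6.8% in 8505c cells), COL1A1 in CAL62 cells to 62442 and 37365, against 5366 and 12922 with DMSO. Their summed level ran from 1979 to 65848 in CAL62 cells and from 166 to 4156 in 8505c cells, none of the 7 was at 0 in every library of a line, and of the 5 epithelial markers tested U0126 raised 2 and lowered 1 in CAL62 cells and raised 2 and lowered 0 in 8505c cells. The part of these markers in these results or in the fall of KITLG was not tested.

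Genes beside KIT on chromosome 4 were read in the same libraries. PDGFRA, 359.7 kb before KIT, and LNX1 were too low to test. KDR, 337.5 kb after KIT and another receptor kinase, measured 42.1 and 32.0 normalized counts with 10 µM DEL-22379 in CAL62 cells, against 22.8 and 42.5 with DMSO, and 5.44 and 8.04 with U0126 (log2 difference of U0126 from DMSO -2.07, adjusted p = 0.0171). CHIC2, 593.2 kb before KIT, measured 656 and 560.4 with 10 µM in CAL62 cells, against 277 and 229 with DMSO. SRD5A3, 605.4 kb after KIT, was low there, at 251 and 175 with 10 µM, against 807 and 584 with DMSO. Of the 7 neighbours tested in this contrast 2 rose and 1 fell, beside 17.1% and 16.8% of all genes, given as a description. CHIC2 fell with U0126 by 0.52 in CAL62 cells and by 0.92 in 8505c cells, and FIP1L1, a factor of mRNA polyadenylation, fell by 0.47 in 8505c cells (adjusted p = 0.0196, 0.00205 and 0.0129). SRD5A3 and TMEM165 fell with U0126 in CAL62 cells (-0.77 and -0.42, adjusted p = 0.0205 and 0.0396), CLOCK was called in neither line with U0126, and GSX2 reached at most 24.3 in any library. In all, U0126 raised 0 of 7 tested neighbours and lowered 4 in CAL62 cells, and in 8505c cells U0126 and 10 µM DEL-22379 each raised 0 and lowered 2. Over all genes 15.1% fell with U0126 in CAL62 cells, 5.87% with U0126 and 6.57% with 10 µM in 8505c cells. The 4 calls became 1 without CAL62 DMSO replicate 1 or U0126 replicate 2 and 0 without U0126 replicate 1 or with only the compared groups in the fit. In 8505c cells the 2 calls under U0126 became 1 without DMSO replicate 1 or either U0126 library, and the 2 under 10 µM became 0 without either DMSO library or 10 µM replicate 1 and 1 without 10 µM replicate 2.

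Beside KITLG on chromosome 12 lies DUSP6, an ERK phosphatase gene that ERK itself induces, 766.4 kb away. DUSP6 measured 186 and 95.5 normalized counts with U0126 in 8505c cells, against 2177 and 2273 with DMSO (log2 difference -4.05, adjusted p = 5.8e-06). In CAL62 cells it measured 178 and 169 with U0126, against 2014 and 1863 with DMSO (-3.48, adjusted p = 4.2e-06). DUSP6 and KITLG thus both fell with U0126 in both lines. With 10 µM DEL-22379 in 8505c cells, where KITLG fell by 1.03, DUSP6 had a difference of -0.82 (adjusted p = 0.0651). ATP2B1, a calcium pump, fell in CAL62 cells with U0126 (-0.68, adjusted p = 0.00435) and rose in 8505c cells with 10 µM DEL-22379 (0.59, adjusted p = 0.0192), and CEP290, a ciliary gene, fell there (-0.57, adjusted p = 0.0225). TMTC3, the nearest listed neighbour at 292.9 kb, POC1B and GALNT4 were not called in these 3 comparisons. Of the 6 neighbours U0126 raised 0 and lowered 2 in CAL62 cells and raised 0 and lowered 1 in 8505c cells, and 10 µM DEL-22379 raised 1 and lowered 1 there. Over all genes 15.1%, 5.87% and 6.57% fell in these comparisons and 7.07% rose in the last, and counts this small lie near such shares. The last count, 2 in all, became 0 without either DMSO library or 10 µM replicate 1 and 1 without 10 µM replicate 2. The 2 calls in CAL62 cells became 1 without DMSO replicate 1 or with only the compared groups in the fit, and the 1 in 8505c cells under U0126 became 2 without either CAL62 library with DMSO or with 10 µM.

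ERK output genes, which are known to be induced by ERK signaling, were read in the same way. They include DUSP6, which was also counted among the KITLG neighbours, so the lists share members and are not independent. Of 14 tested, U0126 lowered 12 and raised 0 in CAL62 cells and lowered 13 and raised 0 in 8505c cells, and 10 µM DEL-22379 lowered 7 and raised 0 in 8505c cells, where 15.1%, 5.87% and 6.57% of all genes fell. Their median log2 difference was -1.63, -2.13 and -0.78 in these 3 comparisons, against 0.05, 0.02 and 0.01 over all genes. ETV5, an ETS factor gene, measured 256 and 183 normalized counts with U0126 in 8505c cells, against 4129.7 and 4429 with DMSO (-4.3, adjusted p = 1.7e-07). ETV4 measured 49.8 and 87.5 with U0126 in CAL62 cells, against 3184 and 1750.3 with DMSO (-5.14, adjusted p = 2.0e-06). SPRY4, a feedback inhibitor, fell in 8505c cells by 4 under U0126 and by 1.49 under 10 µM DEL-22379 (adjusted p = 4.6e-06 and 0.0033). KITLG fell in the same 3 comparisons, by about 1 in each. With U0126 the counts stayed at 10 to 13 in CAL62 cells and 9 to 13 in 8505c cells without single libraries, the CAL62 count became 5 with only the compared groups in the fit, and the 7 with 10 µM became 4 without DMSO replicate 1 or 10 µM replicate 1. With 1 µM DEL-22379 limma and edgeR called 0 entries of these 8 lists in either line, and DESeq2 called 0 in CAL62 cells and 1 in 8505c cells. At an unadjusted p under 0.05 in limma there were 2 entries in CAL62 cells and 9 in 8505c cells, beside 336 and 740 of all 19127 genes. Of these entries 1 and 6 were ERK output genes. The ERK output median at 1 µM was 0.06 in CAL62 cells and -0.4 in 8505c cells, against 0 over all genes in each line.

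**Figure D4:**
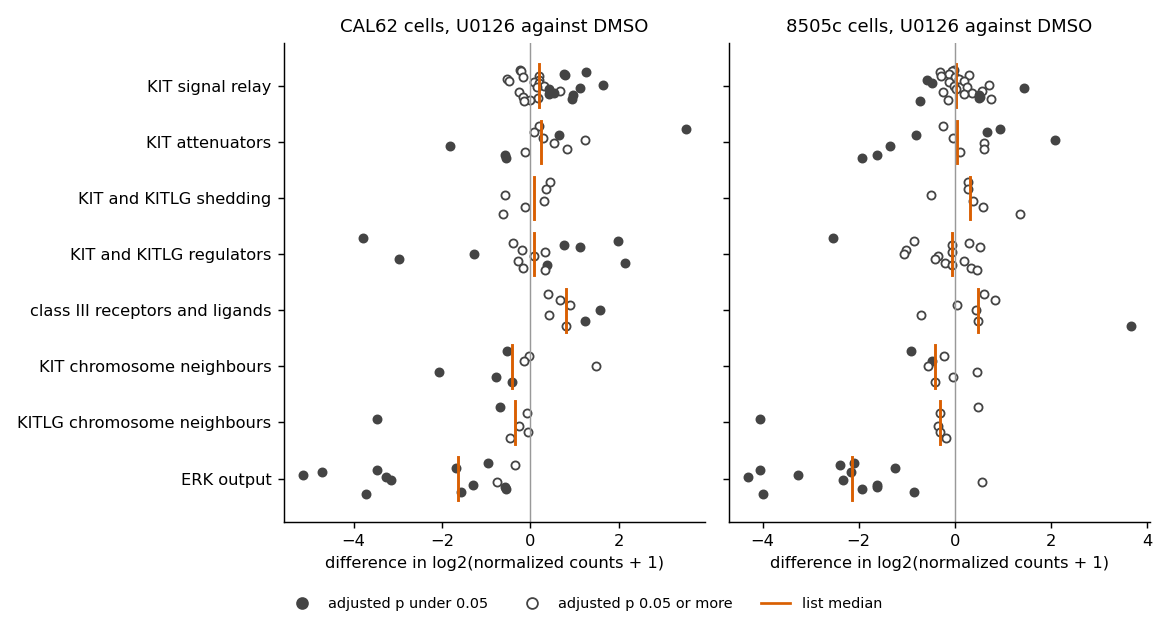
Differences in log2(normalized counts + 1) between U0126 and DMSO for the tested genes of 8 lists, CAL62 cells left and 8505c cells right, filled at adjusted p under 0.05, with a line at each list's median. ERK output genes lay lowest, with medians of -1.63 in CAL62 cells and -2.13 in 8505c cells, and CBLB stood out among the attenuators at 3.52 in CAL62 cells.

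Genes whose log2 values ran most like those of KIT or KITLG were looked up within each line, among protein-coding genes that reached 50 and spanned at least 1 on the log2 scale (6860 in CAL62 cells, 3369 in 8505c cells, 8 libraries each). For KIT in CAL62 cells these were ADGRD2 (Pearson's r 0.99), DENND2D (0.99), FAM162A (0.98), STEAP2 (0.98) and LOXL3 (0.97), and the most opposite were TNRC6C, CIC and USF1 (-0.99 each). ADGRD2, for example, measured 228 and 352 with DMSO, 208 and 312 with 1 µM and 39.6 and 32.0 with 10 µM, so the likeness rests on the low 10 µM pair. An r over 0.9 with KIT was shared by 3.7% of the genes compared there. For KITLG in 8505c cells they were CDK17 (1), SMTN, DOCK4, HMGA1 and KRTAP2-3 (0.99 each), with PIGZ (-1), PDK2 and PTP4A3 (-0.99) opposite. For KIT in 8505c cells they were PLCD1 (0.97), RAB43, TBXA2R, SH2D3A (0.95 each) and ZNF701 (0.94), with ZIC5 (-0.96), TEX30 and SMIM13 (-0.93) opposite. For KITLG in CAL62 cells they were AC011043.1 (0.97), HSPA2, KLF10 (0.95 each), RAD9B and FAM53A (0.94), with SHF (-0.97), AMOTL2 (-0.96) and SPRYD4 (-0.95) opposite. The libraries are treatments in replicate and not independent points, and by rank correlation 11 of the 32 genes kept such a place.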

How the data were processed

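RNA of 16 libraries (2 cell lines, 4 treatments, 2 replicates) was sequenced as stranded mRNA with paired reads of 51 bp. The deposited signal values are gene counts scaled by the authors with 1 size factor for each library, then rounded. The labels name the build GRCh38. Which aligner, counter and annotation were used is not given in the sources used here. Dividing by what 1 read is worth gave whole numbers within 0.02 for 100% of values under 200, so reads were recovered. No column belonged to another sample.

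Genes with at least 10 in at least 2 libraries were kept (19127 of 60715, both members included) and fitted as log2(value + 1) in limma 3.58.1 under R 4.3.3, with trended and robust moderation, a mean for each of the 8 groups, and Benjamini-Hochberg adjustment over all genes in each of 12 comparisons. A gene passed at an adjusted p under 0.05. Tests with edgeR 4.0.16 and DESeq2 1.42.0 were run on the recovered reads. The fit was tested on simulated data. With 2 libraries a group, p-values measure the spread between these replicates. The SD given beside a mean is over 2 replicates, and 95% intervals of differences come from the fit.

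The members, the 15 gene lists (8 of them not markers), the tests and the 26 other settings were chosen with earlier results of these data known. Named genes were up to 4 members per list with the smallest p among those called outside the contrast that chose KIT and reaching 50. Added to these were all chromosome neighbours, some of the markers at 50 or more, and genes by likeness. By likeness these were, per member and line, the 5 genes most like it and the 3 most opposite. Outside this rule ADAM17, FLT3, MIR222HG and PAX8 with 10 µM DEL-22379 were named after their values were seen. Departures from the group mean in libraries of the same number correlated at 0.22 to 0.5 in all 6 pairs of CAL62 groups. In 8505c cells they correlated at 0.09 to 0.12. Among genes with a mean over 100 the ranges were 0.28 to 0.82 in CAL62 cells and 0.21 to 0.36 in 8505c cells. These overlap, so the numbers may be paired in both lines, judged from the values and not from the labels. Promoter, miRNA and location tables were RefSeq (GRCh38.p14) and GENCODE 29.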

Additional observations from a re-analysis of the deposited data

Results flagged for a closer look

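KIT with 10 µM DEL-22379 lay on opposite sides of DMSO in the lines. Both CAL62 libraries lay below both DMSO libraries of CAL62 cells, and both 8505c libraries lay above both DMSO libraries of 8505c cells. The 8505c difference did not pass the test (1.08, limma, adjusted p = 0.324) and was 0.52 without 8505c DMSO replicate 2, so no rise is shown there. The log2 response of CAL62 minus that of 8505c was -7.41. This difference was not tested, since the CAL62 contrast chose KIT.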

How the results depend on the processing

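Over 17 tested results and 26 alternatives, no called result changed direction and 396 of 442 values kept their side of the threshold. KITLG in 8505c cells with 10 µM DEL-22379 missed the threshold with a pseudocount of 0.5 (-1.03, adjusted p = 0.0509), without a filter (-1.03, 0.0613), with equal totals (-0.89, 0.0877) and with quantile normalization (-0.92, 0.0774), and KITLG there with U0126 did so under the same settings (-1.04, -1.04, -0.98 and -0.96, adjusted p 0.0516 to 0.0701). KITLG in CAL62 cells with U0126 missed it with only the compared groups (-0.96, 0.116) and in edgeR (-0.9, 0.0565). KIT in 8505c cells with U0126 passed with only the compared groups (1.71, 0.0424). Without single libraries, the differences ran from -1.12 to -0.93, from -1.09 to -0.99, from -1.34 to -0.57 and from 1.15 to 2.28 for these 4 results, from -1.09 to -0.32 for KITLG between U0126 and 1 µM in CAL62 cells, and from 1.75 to 2.3 for KIT between the lines under U0126. KITLG between U0126 and 1 µM in CAL62 cells passed with the replicate block (-0.7, 0.0107), which changed no other call of KIT or KITLG. The block moved the genes called with 10 µM DEL-22379 in 8505c cells up by more than 1.5 times, to 2518 up and 2471 down, against 1353 and 1256 without it, and with U0126 there to 2324 and 2206, against 1300 and 1123. With only the compared groups in the fit, U0126 in CAL62 cells called 195 up and 524 down, against 2703 and 2889, and U0126 in 8505c cells 2249 and 2133. Without 10 µM replicate 1 the 10 µM calls in 8505c cells were 285 and 282, without U0126 replicate 2 the U0126 calls there were 358 and 358, and without DMSO replicate 1 the U0126 calls in CAL62 cells were 837 and 1442. With equal totals the median over all genes was 0.14 with 10 µM in 8505c cells, against 0.01, with 1863 up and 762 down. With rank correlation 11 of 32 most alike or opposite genes kept their place. Of 1248 list counts 125 moved over 1.5 times. Depth limits KIT in CAL62 cells with 10 µM, at 6 and 3 reads, and 2 replicates a group limit the rest.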
